A study of Homo sapiens with 4 samples.

Results

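The expression of the 9 m6A writer genes METTL3, METTL14, WTAP, VIRMA, RBM15, RBM15B, ZC3H13, CBLL1 and METTL16 was examined in RNA-seq data of HaCaT cells after ALKBH5 knockdown. The genes were chosen by name, as subunits of the writer complex and METTL16, and all 9 of them were found among the 58735 genes of the deposited tables and passed the expression filter, as did 15075 genes in all. HaCaT is an established line of human keratinocytes. The cells were labelled WT and transfected with normal control siRNA (siControl, 2 libraries), or labelled ALKBH5 knockdown and transfected with an siRNA against ALKBH5 (siALKBH5, 2 libraries), in each case with 200 pmol siRNA and a lipid reagent. One cell line was used, no time after transfection and no untransfected cells are given in the labels, and the labels do not say whether the second library of a group came from a separate culture. The p-values therefore measure the spread between these libraries, which may be technical.

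N6-methyladenosine (m6A) is placed on mRNA in the nucleus by a large methyltransferase complex. METTL3 is its catalytic subunit, METTL14 is a catalytically inactive partner that holds METTL3 and the RNA in place, and the regulatory part is built on WTAP and VIRMA, with ZC3H13, the RNA-binding proteins RBM15 and RBM15B, and the E3 ligase CBLL1 (HAKAI). METTL16 is a separate enzyme that methylates hairpins of the MAT2A mRNA and that also takes part in the splicing of MAT2A. MAT2A makes S-adenosylmethionine, the methyl donor of all these enzymes, and ALKBH5 and FTO are the erasers that remove m6A.

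The sites of METTL16 are shown because they join one writer to a gene measured in the same libraries. The motif TACAGANAA was searched on the transcript strand, which is the only strand an mRNA has, in the coding transcript of each tested gene with the longest 3'UTR. It was found 6 times in the 3'UTR of MAT2A, which is 1508 bases long. Of the 12500 genes with such a transcript, 889 (7.11%) held the motif at least once, and MAT2A was the only one that held 6. The capitals mark the motif, and the sequences are those of GENCODE 29 on GRCh38.
MAT2A site 1: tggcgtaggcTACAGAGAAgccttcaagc
MAT2A site 2: tgtgatgtcaTACAGAGAAgtcacagggc
MAT2A site 3: ctggtgtagcTACAGAGAAaccagcttcc
MAT2A site 4: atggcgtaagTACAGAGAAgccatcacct
MAT2A site 5: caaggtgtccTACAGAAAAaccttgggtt
MAT2A site 6: gctggtgtggTACAGAGAAgccagcttgt
Site 1 lies on the plus strand at chr2:85543802-85543830 and site 6 at chr2:85545112-85545140. A match describes the letters only, and MAT2A was searched as the known target of METTL16, so its standing among the genes is not a test. Among the writers, CBLL1 held the motif in its 3'UTR, at 1 place, and the 3'UTRs of the other 8 did not hold it.

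The siRNAs that the study lists against ALKBH5 are shown because their seeds, bases 2 to 8 in capitals, could also pair with other mRNAs. The labels do not say which of them was used for these libraries.
ALKBH5-si1 antisense: uCGCCGAAgaaguacuugu
ALKBH5-si2 antisense: uAGUCGUUgaugacggcgc
Each antisense strand was fully complementary to the coding transcripts of 1 gene, ALKBH5. The site of the si1 seed, TTCGGCG, was in the 3'UTR of 0.448% of the 12500 genes, and that of the si2 seed, AACGACT, in 1.58%. Neither antisense site was found in the 3'UTR of any of the 9 writers. Outside the 3'UTR, the antisense si1 site was found at 1 place, in RBM15B, and the antisense si2 site in none of the 9 transcripts. The seeds of the sense strands were searched as well. The si1 sense site, GTACTTG, was in the 3'UTR of 9.54% of the genes, among them RBM15B and CBLL1, at 1 place each. The si2 sense site, GACGGCG, was in the 3'UTR of 1% of the genes and of no writer. Outside the 3'UTR it was found in RBM15 and METTL16, at 1 place each. Any effect of these sites was not tested.

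The libraries held between 16017502 and 18837807 counts on genes, and the mitochondrial share was between 9.63% and 10.2%. ALKBH5 had 93.8 and 87.6 CPM (each count divided by the effective size of its library, from TMM factors, and set to one fixed total) in siControl and 51.2 and 49.6 CPM in siALKBH5, so 55.6% of its mRNA was left (log2 fold change -0.85 with a standard error of 0.05, adjusted p = 6.4e-15 by the quasi-likelihood test of edgeR). The 10 keratinocyte markers were all expressed, at 39.0 CPM or more in every library, and their summed level was 18049 to 18430 CPM in siControl and 23779 to 23854 CPM in siALKBH5. Of these 10 markers, 4 were higher, among them KRT5 with a mean of 7034 CPM in siControl and 11248 CPM in siALKBH5, 3 were lower and 3 were not called, and their median log2 fold change was -0.03. The summed levels in siControl and siALKBH5 were 21.9 to 22.8 and 18.7 to 19.1 CPM for 5 fibroblast markers, 2.72 to 3.23 and 3.16 to 3.89 CPM for 4 melanocyte markers, 32.5 and 35.0 to 35.5 CPM for 3 endothelial markers, and 0.310 to 0.389 and 0.122 to 0.268 CPM for 4 immune markers, with COL1A2 and TYR at 0 counts in the 4 libraries and PECAM1 and COL3A1 at 0 in 3 of them. Within these sums the fibroblast markers DCN and LUM were lower (log2 fold changes -1.25 and -1.08, edgeR adjusted p = 0.00050 and 0.021), and of the endothelial markers CDH5 was lower at -0.69 and VWF higher at 0.51 (edgeR adjusted p = 5.0e-05 and 2.1e-05). All 10 proliferation genes, from MKI67 to PCNA, were higher at an adjusted p under 0.05, with a summed level of 1165 to 1169 CPM in siControl and 1927 to 1937 CPM in siALKBH5. The part of these shifts in the changes of the writers was not tested.

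To ask whether the writers were altered when the eraser was depleted, the groups were compared gene by gene. In siALKBH5, METTL14 fell by 20.8% and WTAP fell by 14.9%. The other 7 writers did not pass the test, and 0 writers were higher by edgeR's quasi-likelihood test, which stayed 0 at an unadjusted p under 0.05 and with DESeq2 at either p. Over all genes tested, 17.3% were lower and 19.3% were higher at an adjusted p under 0.05 (36.6% in either direction), so 2 lower genes of 9 is a share near the background. When the log2 fold change also had to be 1 or more in size, a threshold that 1.3% of all genes passed as lower and 1.62% as higher (2.92% together), 0 writers were called. Without that threshold, 3 writers were lower at an unadjusted p under 0.05 by edgeR and 2 by DESeq2. The share of all genes at an unadjusted p is not given here, so these counts cannot be set against a background. The median log2 fold change was -0.09 over the 9 writers and -0.0081 over all genes, and the writers ranged from -0.34 to 0.10. The cells were measured in bulk, so fewer cells that express a gene and less of its RNA per cell cannot be told apart.

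The catalytic core showed unequal values for its subunits. METTL14 (ENSG00000145388, chromosome 4 of GRCh38 from 118685368 to 118715433, plus strand) was counted 403 and 499 times in siControl, against 409 and 327 times in siALKBH5. On the CPM scale these are 25.0 and 27.7 in siControl and 21.9 and 19.9 in siALKBH5. Both siALKBH5 libraries lay below both siControl libraries, and the gap between the groups was wider than that within the siALKBH5 pair. The log2 fold change of METTL14 was -0.34 (standard error 0.09, 95% interval -0.52 to -0.16, edgeR adjusted p = 0.0030), a size that 29.5% of all tested genes exceeded. The call rested on siControl replicate 2, without which the log2 fold change was -0.26 with an adjusted p of 0.075 by edgeR, and DESeq2 gave an adjusted p of 0.057. Over the 12 alternatives its adjusted p ranged from 0.00067 to 0.075. At its lowest count of 327, counting error alone is 5.53% of the level.

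METTL3 (ENSG00000165819, chromosome 14 from 21498133 to 21511375, minus strand) was counted 538 and 562 times in siControl, against 570 and 497 times in siALKBH5. The levels were 33.4 and 31.2 CPM in siControl and 30.5 and 30.2 CPM in siALKBH5. The siALKBH5 libraries were the lower ones, but by less than the distance between the siControl libraries. The log2 fold change of METTL3 was -0.09 (standard error 0.08, 95% interval -0.24 to 0.07, edgeR adjusted p = 0.39). The interval reaches from 15.4% below to 4.62% above the control level. Per gene length, METTL3 was 1.55 and 1.31 times the level of METTL14 in the siControl libraries and 1.62 and 1.77 times in the siALKBH5 libraries. The size of this ratio rests on listed gene lengths of 5894 bases for METTL3 and 6862 for METTL14. The transcripts examined have 2015 and 6669 bases, so the ratio is not a measure of subunit proportions. Its difference between the groups does not depend on length. The log2 ratio was 0.25 higher in siALKBH5 (0.51 ± 0.17 against 0.76 ± 0.09, SD, n = 2 each, two-sided exact permutation p = 0.33, the smallest that 2 libraries against 2 allow). Without siControl replicate 2 this difference was 0.12, and without siControl replicate 1 it was 0.37.

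**Figure D1:**
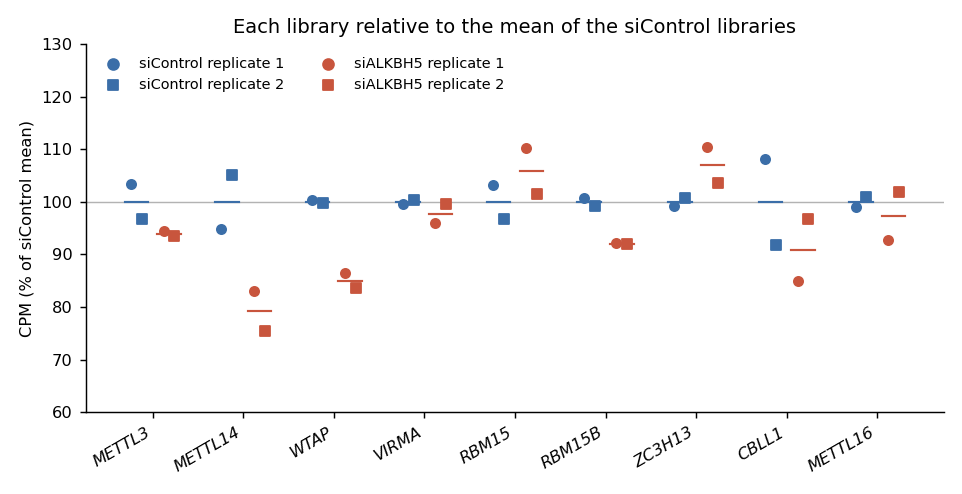
CPM of each writer in each library as a percent of the mean of the siControl libraries, with circles for replicate 1, squares for replicate 2 and lines for group means. The siALKBH5 libraries stood at 83.0% and 75.3% for METTL14 and at 86.5% and 83.5% for WTAP, and those of VIRMA, RBM15, CBLL1 and METTL16 overlapped with siControl.

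In the regulatory part, WTAP, the adaptor that brings the METTL3 and METTL14 pair to nuclear speckles, was the gene that fell. WTAP (ENSG00000146457, chromosome 6 from 159725585 to 159756319, plus strand) was counted 1030 and 1143 times in siControl, against 1030 and 876 times in siALKBH5. Its level was 63.9 and 63.5 CPM in siControl and 55.1 and 53.2 CPM in siALKBH5, and the groups were well apart compared with the distance within either pair. The log2 fold change of WTAP was -0.23 (standard error 0.06, 95% interval -0.35 to -0.12, edgeR adjusted p = 0.0010), and it stayed between -0.26 and -0.21 with adjusted p-values of at most 0.030 under all 12 alternatives. Exons of WTAP overlap those of SOD2 on the opposite strand, and the sources used here do not say that counting used strand, so reads of the overlap cannot be assigned with certainty. SOD2 (ENSG00000112096), named because of this overlap, was counted 1203 and 1357 times in siControl, against 1182 and 1073 times in siALKBH5, with a log2 fold change of -0.23 (standard error 0.05, edgeR adjusted p = 0.00057). The pseudogene WTAPP1 had between 3 and 6 counts in each library.

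RBM15 and RBM15B are paralogs that bring the complex to its RNAs, among them the Xist RNA. RBM15B (ENSG00000259956, chromosome 3 from 51391268 to 51397908, plus strand) had 76.8 and 75.8 CPM in siControl and 70.3 and 70.2 CPM in siALKBH5. All its values in siALKBH5 were below those in siControl, but the difference did not pass the threshold (log2 fold change -0.12 with a standard error of 0.05, edgeR adjusted p = 0.055). With library size only as the scaling, the adjusted p of RBM15B was 0.022 by edgeR, with the replicate block it was 0.044, and over the 12 alternatives it ranged from 0.022 to 0.29. RBM15 (ENSG00000162775, chromosome 1 from 110338506 to 110346681, plus strand) had 24.7 and 23.2 CPM in siControl and 26.4 and 24.3 CPM in siALKBH5, so the groups overlapped, with a log2 fold change of 0.09 (95% interval -0.09 to 0.26, edgeR adjusted p = 0.46). Per gene length, RBM15B was 2.19 and 2.30 times RBM15 in siControl and 1.87 and 2.03 times in siALKBH5. The size of this ratio, too, rests on the listed gene lengths, 6641 and 4670 bases. The log2 ratio of RBM15B to RBM15 was 1.16 ± 0.05 in siControl and 0.96 ± 0.08 in siALKBH5 (SD, n = 2 each, two-sided exact permutation p = 0.33).

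VIRMA (ENSG00000164944, chromosome 8 from 94487693 to 94553529, minus strand), the large scaffold that directs methylation towards the stop codon and the 3'UTR, had the highest counts of the 9 genes, between 1358 and 1528 in each library. Its level was 84.3 and 84.9 CPM in siControl and 81.1 and 84.3 CPM in siALKBH5. The groups overlapped, and the interval of its log2 fold change, -0.13 to 0.06, was the narrowest among the writers. ZC3H13 (ENSG00000123200, chromosome 13 from 45954465 to 46052759, minus strand), which anchors WTAP in the nucleus, had 57.7 and 58.6 CPM in siControl and 64.2 and 60.2 CPM in siALKBH5. It was the one writer with both siALKBH5 libraries above both siControl libraries, and it did not pass the test (log2 fold change 0.10 with a standard error of 0.06, edgeR adjusted p = 0.17). CBLL1 (ENSG00000105879, chromosome 7 from 107743697 to 107761667, plus strand) had 24.3 and 20.6 CPM in siControl and 19.1 and 21.7 CPM in siALKBH5, with a log2 fold change of -0.14 (95% interval -0.34 to 0.06, edgeR adjusted p = 0.29). Its siControl libraries differed more from each other than those of any other writer.

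METTL16 (ENSG00000127804, chromosome 17 from 2405562 to 2511891, minus strand) was counted 700 and 797 times in siControl, against 760 and 735 times in siALKBH5. Its level was 43.4 and 44.3 CPM in siControl and 40.7 and 44.7 CPM in siALKBH5. One siALKBH5 library was the lowest of the 4 and the other the highest. The log2 fold change of METTL16 was -0.04 (95% interval -0.18 to 0.09, edgeR adjusted p = 0.66), and it was 0.03 without siALKBH5 replicate 1.

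**Figure D2:**
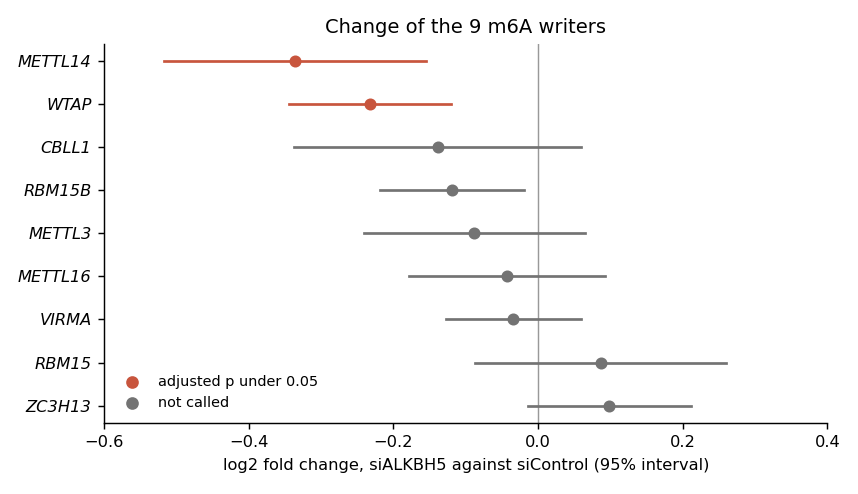
Log2 fold change of each writer, siALKBH5 against siControl, as points with 95% intervals from edgeR's quasi-likelihood model, ordered by value. METTL14 at -0.34 and WTAP at -0.23, in red, passed an adjusted p under 0.05, and the others, in grey, lay between -0.14 and 0.10.

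Counted over libraries, 4 writers (METTL3, METTL14, WTAP and RBM15B) had both siALKBH5 libraries below both siControl libraries, 1 was above and 4 overlapped. Over all tested genes, 33.5% were below and 32.8% were above in this way. The siALKBH5 change of METTL3 was exceeded in size by 75.7% of all tested genes, that of VIRMA by 90.4% and that of WTAP by 44.1%.

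The writers were also compared with each other within the cells, per gene length, as FPKM (CPM per kilobase of the listed gene length). The listed length was 5894 bases for METTL3 and 6419 for WTAP, against 2015 and 1622 in the transcripts examined. For RBM15B both were 6641. Other lengths could change the order of the writers, which was not tested. The ranges given here cover only the spread between libraries. RBM15B had the highest level, 11.03 FPKM on average over the 4 libraries, followed by WTAP at 9.18 and VIRMA at 7.77. ZC3H13 at 5.86, METTL3 at 5.32, RBM15 at 5.28 and METTL16 at 4.84 came next, and CBLL1 at 3.91 and METTL14 at 3.44 were lowest. The ranges over the 4 libraries did not overlap between RBM15B and WTAP, WTAP and VIRMA, VIRMA and ZC3H13, or METTL16 and CBLL1. They did overlap between ZC3H13 and METTL3, METTL3 and RBM15, RBM15 and METTL16, and CBLL1 and METTL14, so the order of these neighbours is not settled. In each single library, 7 of the 9 genes held the rank they had in the mean.

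**Figure D3:**
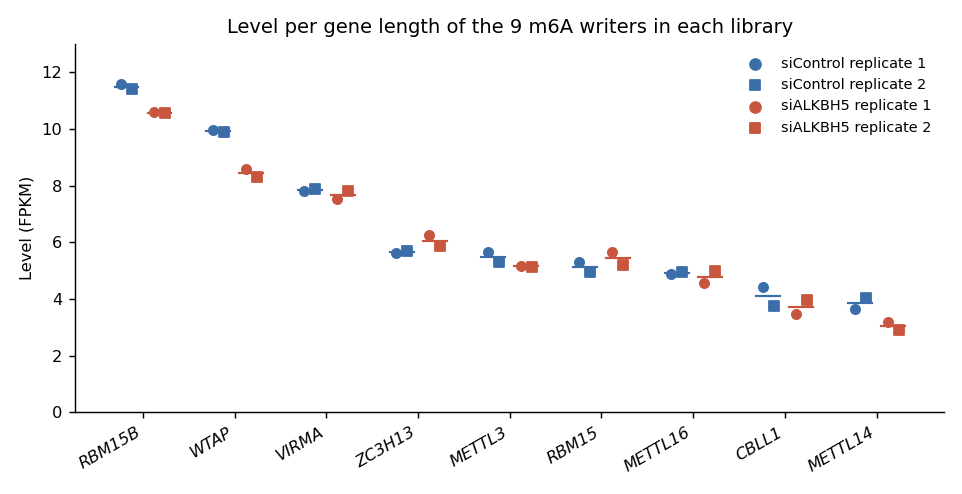
Level of each writer in FPKM in each library, ordered by the mean over the 4 libraries, with circles for replicate 1, squares for replicate 2 and lines for group means. RBM15B was at 10.6 to 11.6 FPKM in the 4 libraries and METTL14 at 2.90 to 4.04.

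Summed over the 9 genes, the level was 58.9 and 57.9 FPKM in siControl and 55.0 and 54.7 FPKM in siALKBH5. METTL14 made up 6.19% and 6.98% of this sum in siControl and 5.80% and 5.29% in siALKBH5. WTAP made up 16.9% and 17.1% in siControl and 15.6% and 15.2% in siALKBH5, while ZC3H13 made up 9.55% and 9.85% and then 11.4% and 10.7%. The makeup of the writer mRNAs thus differed by a few percentage points at most between the groups. Per listed gene length, the level of METTL3 relative to ALKBH5 was 0.19 in each siControl library against 0.32 and 0.33 in siALKBH5. The knockdown of ALKBH5 is in the denominator of this ratio.

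The genes differed in structure. RBM15B has 1 exon and 1 annotated transcript, whereas VIRMA has 24 exons in the transcript examined and METTL3 has 14 annotated transcripts, which counts per gene cannot tell apart. The 3'UTR of the transcript examined was 5131 bases long in METTL14, 3836 in RBM15B and 120 in METTL3, against a median of 1358.5 bases over 12500 genes. For WTAP the transcript with the longest 3'UTR is a short isoform with a coding length of 456 bases, so the searches of WTAP cover that isoform. GGACT, a frequent form of the m6A consensus, occurred 1.99 times per kilobase in METTL3, 1.85 times in WTAP, 1.2 times in METTL14 and 0.525 times in METTL16, searched on the transcript strand, and the median over 12500 genes was 0.928. Of the 9 writers, 5 were above this median, so the writers were not set apart by this motif. Besides WTAP, exons of METTL3, RBM15B, RBM15 and CBLL1 overlap a gene on the opposite strand. The partners, named for this overlap, were TOX4 for METTL3 (log2 fold change 0.02, edgeR adjusted p = 0.76), DCAF1 for RBM15B (0.21, edgeR adjusted p = 0.061), RBM15-AS1 for RBM15 (11 to 20 counts in each library) and AC002467.1 for CBLL1 (25 to 39 counts).

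The genes whose profile over the 4 libraries lay nearest to that of METTL3, by Euclidean distance of centred log2 CPM among 9258 other genes, were OGFRL1 at 0.012, LRRC75A-AS1 at 0.013 and VPS13B at 0.014. For METTL14 they were SPOPL at 0.032, FNBP1L at 0.033 and RAB33B at 0.033. As many as 151 genes were nearer than 0.05 to METTL3 and 10 to METTL14, and 4 libraries of 2 groups do not separate such profiles.

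To set the writers beside the rest of their pathway, 36 further genes were examined: writers outside the complex, erasers, readers, the S-adenosylmethionine cycle and partners of the complex. Of these, 33 passed the expression filter, 8 passed an adjusted p of 0.05 as lower and 9 as higher, while 16 were not called, beside 17.3% lower and 19.3% higher over all genes. Their median log2 fold change was 0.00059, against -0.0081 over all genes. IGF2BP1, MAT1A and BHMT, named here because they were not tested, had 0 counts in the 4 libraries.

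The S-adenosylmethionine cycle held the largest values after ALKBH5. MAT2A, the synthetase with the METTL16 sites shown above, fell from 92.8 and 92.4 CPM in siControl to 64.1 and 70.5 CPM in siALKBH5. Its log2 fold change was -0.46 (standard error 0.05, edgeR adjusted p = 3.2e-09), between -0.53 and -0.39 under all alternatives. MAT2B, the regulatory subunit of the same synthetase, fell from 131.3 and 137.9 CPM to 112.4 and 112.6 CPM (log2 fold change -0.26, edgeR adjusted p = 3.0e-06). AHCY, which removes S-adenosylhomocysteine, the product that inhibits methyltransferases, rose from 213.2 and 203.3 CPM to 302.8 and 298.7 CPM (log2 fold change 0.53 with a standard error of 0.03, edgeR adjusted p = 9.7e-16). The AHCY-like genes AHCYL1 and AHCYL2 rose as well, by 0.30 and 0.21 on the log2 scale, the second with an adjusted p of 0.039 by edgeR that was lost in 7 of 12 alternatives, among them without siControl replicate 1 and without siALKBH5 replicate 2 (0.16 in each case). Of the 8 genes tested from the cycle list, which includes AHCYL1 and AHCYL2, 2 were lower, 3 were higher and 3 were not called. Over all genes tested, 17.3% were lower and 19.3% were higher.

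Among the erasers, FTO had 43.8 and 45.0 CPM in siControl and 45.8 and 43.2 CPM in siALKBH5, with overlapping groups and a log2 fold change of 0.0052 (edgeR adjusted p = 0.96). The nuclear readers went in both directions. HNRNPC, a nuclear RNA-binding protein whose access to RNA changes with m6A, rose by 0.22 on the log2 scale (edgeR adjusted p = 2.4e-09). YTHDC1, which binds m6A in the nucleus, had a log2 fold change of -0.18 (edgeR adjusted p = 0.012), which was -0.11 without siControl replicate 2 and -0.12 without siALKBH5 replicate 2, with adjusted p-values of 0.27 and 0.19 by edgeR. Its call was also lost with DESeq2 (adjusted p = 0.12) and with limma at both pseudocounts (adjusted p = 0.10), so in 5 of 12 alternatives. Of the cytoplasmic readers, YTHDF3 fell by 0.23 on the log2 scale (edgeR adjusted p = 0.00040), and without siControl replicate 2 its value was -0.15 with an adjusted p of 0.051. Of the 7 cytoplasmic readers tested, 2 were lower, 2 were higher and 3 were not called, beside 17.3% lower and 19.3% higher over all genes. The higher ones, ELAVL1 and IGF2BP3, had log2 fold changes of 0.19 and 0.17 (adjusted p = 0.0085 and 0.030 from edgeR). The call of ELAVL1 was lost without siControl replicate 1, at 0.12 (adjusted p = 0.20 by edgeR), and that of IGF2BP3 without any of the 4 libraries in turn, at 0.15 to 0.19. With DESeq2 and limma, ELAVL1 had adjusted p-values of 0.089 to 0.11 and lost its call in 4 of 12 alternatives in all. IGF2BP3 lost its call in 8 of 12, with adjusted p-values of 0.18 by DESeq2, 0.061 by edgeR with library size only and 0.11 by limma. SRSF3, a splicing factor that works with YTHDC1, rose by 0.30 (edgeR adjusted p = 1.8e-09) and kept its call under all 12 alternatives. It was the 1 higher gene of the 5 tested from the list labelled here as partners of the complex. In that list 2 genes were lower and 2 were not called.

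**Figure D4:**
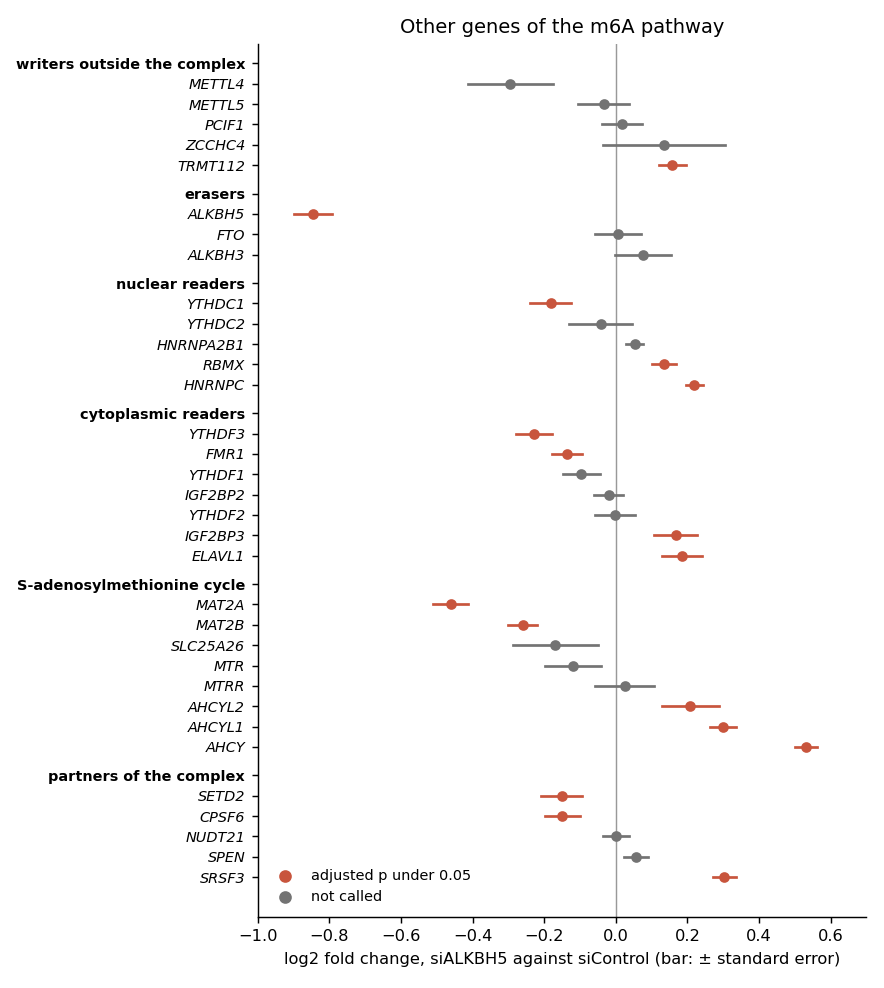
Log2 fold change, siALKBH5 against siControl, of the 33 tested pathway genes by role, as points with bars of ± 1 standard error, in red where the adjusted p of edgeR was under 0.05. ALKBH5 at -0.85 and MAT2A at -0.46 were the lowest, and AHCY at 0.53 was the highest.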

How the data were processed

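RNA-seq was performed on poly-A RNA of HaCaT cells, with 2 siControl and 2 siALKBH5 libraries. The authors deposited raw counts and FPKM per gene in 2 tables, each with 1 library per group. The submitters' processing notes name hg38, HISAT2 2.0.5, featureCounts 1.5.0-p3 and DESeq2 1.20.0. Identifiers and coordinates of all 58735 genes match GENCODE 29. The FPKM that the authors deposited use a scaling per table and were not used, nor were the authors' fold changes and p-values.

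Counts of the 4 libraries (16017502 to 18837807 in total) were tested together by the quasi-likelihood test of edgeR 4.0.16 (R 4.3.3) with TMM scaling, the filterByExpr filter, no covariates and Benjamini-Hochberg adjustment over 15075 genes. Calls were made at an adjusted p under 0.05. The fold threshold of the study, 1 on the log2 scale in either direction, is given where named. Replicates of a group differed by more than sampling noise (chi-square per degree of freedom 1.74 and 1.85). The spread beyond counting that edgeR estimated was a common coefficient of variation of 0.025. Neither value shows whether the replicates were separate cultures.

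Alternatives were DESeq2 1.42.0, DESeq2 size factors, library size only, other filters, limma 3.58.1 on recomputed FPKM, a replicate block and each library left out. The steps were run on simulated data with the same spread for all genes, which does not test the calls made here. The members and lists were chosen with earlier results of these data known. Named were the 9 writers, the 12 called pathway genes that changed most (mean CPM of 1 or more), FTO, and the 3 genes nearest to METTL3 and METTL14 in pattern (mean CPM of 10 or more). The 95% intervals come from the edgeR model and include the spread between libraries, while counting errors cover the counts only.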

Additional observations from a re-analysis of the deposited data

How the results depend on the processing

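WTAP, 1 of the 2 lower writers, kept its call under all 12 alternatives, and METTL14 lost it with DESeq2 and without siControl replicate 2. The number of lower writers was 1 with DESeq2 and 1 to 2 with each library left out, the lower end without siControl replicate 2. With the replicate block, 3 writers were lower, RBM15B being the third, and the block lost no writer's call. The libraries pair by replicate number and were deposited in these pairs, but the labels do not say what a pair shares. The deviations of replicate 1 from the group means had a correlation of 0.11 between the groups over 9259 genes. The main test did not use this pairing. The log2 fold change of METTL16 reversed without siALKBH5 replicate 1 and spanned -0.11 to 0.027 with each library left out. That of FTO, near 0, reversed with library size only (-0.017), limma on log2(FPKM + 1) (-0.012), limma on log2(FPKM + 0.1) (-0.017), without siControl replicate 1 (-0.011) and without siALKBH5 replicate 1 (-0.037), and spanned -0.037 to 0.047 with each library left out. Among the pathway genes, the lower ones, 8 in the test as reported, numbered 4 with DESeq2, 5 with limma at either pseudocount and 3 to 7 with each library left out. The higher ones, 9 as reported, numbered 5 with limma at either pseudocount and 6 to 8 with each library left out. The cause was not tested, except that leaving out a library leaves fewer samples. Over the 9 writers and 12 alternatives, 103 of 108 values kept direction and side of the threshold. Over all genes, 2610 were lower and 2913 higher as reported, 1229 and 1827 with DESeq2, and 2894 and 2616 with library size only. The replicate block gave 2831 and 3091. Of 11823 genes tested by limma, 1847 were lower and 1848 higher on log2(FPKM + 1), and 1850 and 1838 on log2(FPKM + 0.1). Calls over all genes were also fewer with each library left out.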
